A study of Mus musculus with 10 samples.

Results

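Chemokines and their receptors were followed in the left ventricle, with 5 mice in the control group and 5 in the HFD+mTAC group. The members were taken by symbol, as every listed gene whose name starts with Ccl, Cxcl, Ccr, Cxcr or Ackr followed by a digit, together with Cx3cl1, Cx3cr1, Xcl1, Xcr1, Ccrl2, Pf4 and Ppbp. Under this rule 65 of the 29564 genes listed were followed, and 48 of them had at least 1 estimated count in 5 or more of the 10 mice, namely 31 ligands and 17 receptors. Of these 48, 41 reached at least 1 count in 9 mice or more and could be tested within the fit over 13296 protein-coding genes. The 7 that could not were Ackr2, Ccl28, Ccr3, Cxcl11, Cxcr6, Xcl1 and Xcr1.

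All mice were wild-type C57BL6 males. For mice of the heart failure models, the paper's methods give vehicle once a day for 6 to 9 weeks at 10 mL/kg. The paper also describes RNA sequencing of hearts after 1 dose, so the length of dosing behind these libraries is not certain. The sample titles name vehicle for HFD+mTAC mice only. If control mice had none, an effect of vehicle dosing cannot be told apart from that of the group. HFD+mTAC mice had moderate transverse aortic constriction as adults, an operation that narrows the aorta and makes the left ventricle pump against pressure, and ate a high-fat diet (HFD) from then on. Control mice were non-failing, had no constriction and ate standard chow. No mice with the diet alone, the constriction alone or a sham operation are among these samples, so the effects of diet, pressure load and surgery cannot be told apart. Each library came from 1 mouse.

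Chemokines are small secreted proteins that guide leukocytes along gradients, and they are grouped as CC, CXC, CX3C or XC by the spacing of their first cysteines. They act on G protein-coupled receptors, whereas atypical receptors bind them without the usual signal and shape or remove the gradient. In the heart, some ligands such as Cxcl12 are made constitutively by stromal and endothelial cells, and others such as Ccl2 and Cxcl2 are induced by cytokines through NF-kappaB and call monocytes or neutrophils into injured muscle.

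The libraries held 34.2 to 53.7 M estimated counts, of which 12.7 to 21.1 M fell on the genes tested. It did not differ detectably between the groups (two-sided exact permutation test, p = 0.444 for all counts and p = 0.198 for genes tested, of which the smallest possible with 5 against 5 is 0.00794). Tissue markers fitted a left ventricle, with a summed level of 6 cardiomyocyte genes of 8908 to 13269 TPM, and no library pair within a group was alike within sampling noise. All 6 cardiomyocyte genes had a log2 fold change below 0 (median -0.20), 2 of them at an unadjusted p under 0.05 and 0 past the adjusted threshold in edgeR. Their sum was 11697 ± 1228 TPM in control and 10161 ± 1240 TPM in HFD+mTAC mice (SD, n = 5, two-sided exact permutation test, p = 0.103). Of all 13296 genes tested, 8 passed an adjusted p of 0.05 in the edgeR quasi-likelihood test (0.0602%), 6 higher and 2 lower in HFD+mTAC mice.

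Chemokine ligands were lower on balance in HFD+mTAC hearts, although no single member passed the adjusted threshold. In the edgeR test 0 of 41 members had an adjusted p under 0.05, and the smallest was 0.139 for Ccl11. At an unadjusted p under 0.05, 12 of 41 members (29.3%) were lower, against 3.72% of all genes tested, and 0 were higher, against 4.54% of all genes. The 12 were Ccl11, Ccl4, Ccl2, Ccl3, Ccl7, Ccl6, Ccr1, Ppbp, Ccl9, Pf4, Cxcl2 and Cxcl1. The members were chosen with earlier results of these data known, and all were read in the same mice. These shares therefore describe the list and are no test of it. The groups did not overlap for 4 members, Ccl2, Ccl3, Ccl4 and Ccl11, all lower in HFD+mTAC mice, against 0.887% of all genes lower without overlap, and for 0 members that were higher, against 1.08%. DESeq2, a second count test, called the same 4 members lower (adjusted p = 0.000622 for Ccl11, 0.00793 for Ccl2, 0.0254 for Ccl4 and 0.0363 for Ccl3), against 0.429% of genes called lower by it. It gave no adjusted p for Ppbp. limma on log2(TPM + 1) called 0 members.

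Of the 41 members, 30 (73.2%) had a log2 fold change below 0, against 49.7% of all genes tested. Their median was -0.27 on the log2 scale, against 0.0014 over all genes. The share depended on the filter. With protein-coding genes found in 5 mice or more, 30 of 47 members were below 0, with a median of -0.24. Ackr2, Ccl28, Ccr3, Cxcr6, Xcl1 and Xcr1, which enter only there, were all above 0. The tilt lay with the ligands, of which 24 of 28 were below 0 with a median of -0.33, while 6 of 13 receptors were below 0 with a median of 0.01. This difference between ligands and receptors was not tested. Receptor levels were low, with a mean over 0.1 TPM for 4 of the 17 reported, against 23 of the 31 ligands. The direction of several receptors therefore rests on few reads. A p-value over the threshold does not show that a member was equal in the 2 groups, and in whole tissue fewer cells of a type and less RNA per cell cannot be told apart.

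**Figure D1:**
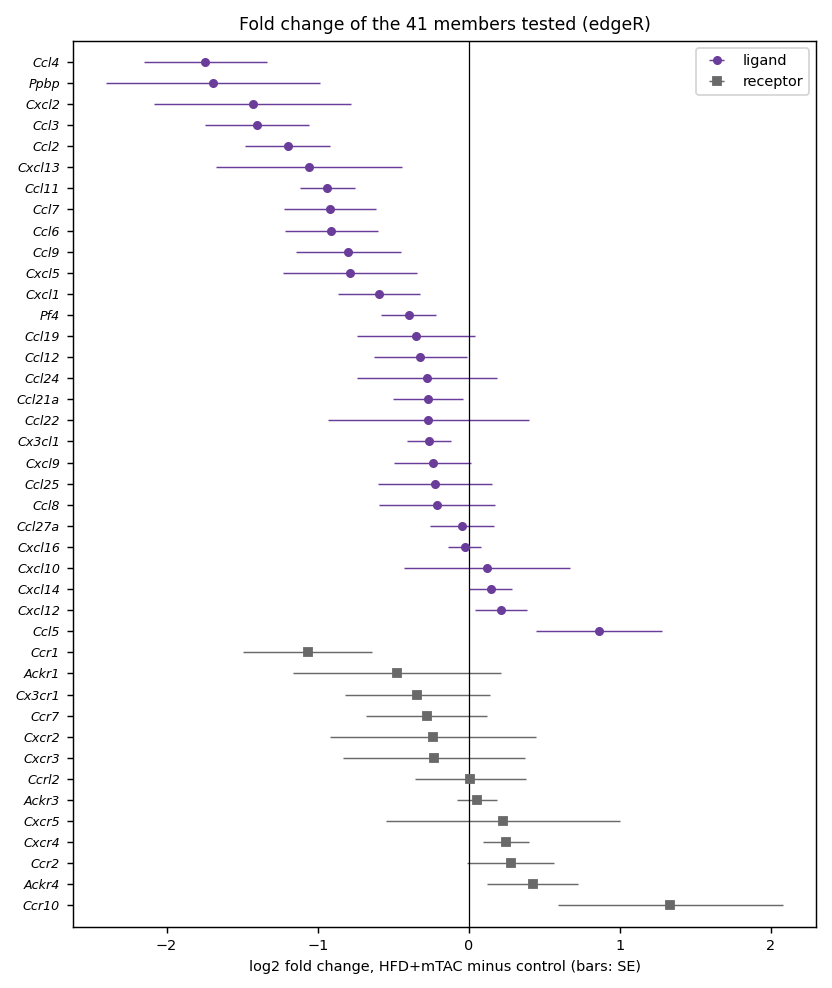
Log2 fold change (HFD+mTAC minus control, x axis) of each of the 41 members tested, from edgeR, with bars for the SE; circles are ligands and squares are receptors. Ligands reach from -1.74 for Ccl4 to 0.86 for Ccl5, with 24 of 28 left of 0, and receptors from -1.07 for Ccr1 to 1.33 for Ccr10.

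No single mouse held all the extreme values of the 12 members lower at an unadjusted p under 0.05. That the highest lay in control and the lowest mostly in HFD+mTAC mice is largely set by how the 12 were chosen and adds no support. The highest was TT-584 for 5 members, TT-583 for 3, and TT-585 and TT-587 for 2 each. The lowest was TT-591 for 6, TT-590 for 3, and TT-585, TT-588 and TT-592 for 1 each. Without TT-583 and TT-584 together, a choice made after the data were seen, 27 of 41 members were below 0 with a median of -0.24 and edgeR called 0 members.

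**Figure D2:**
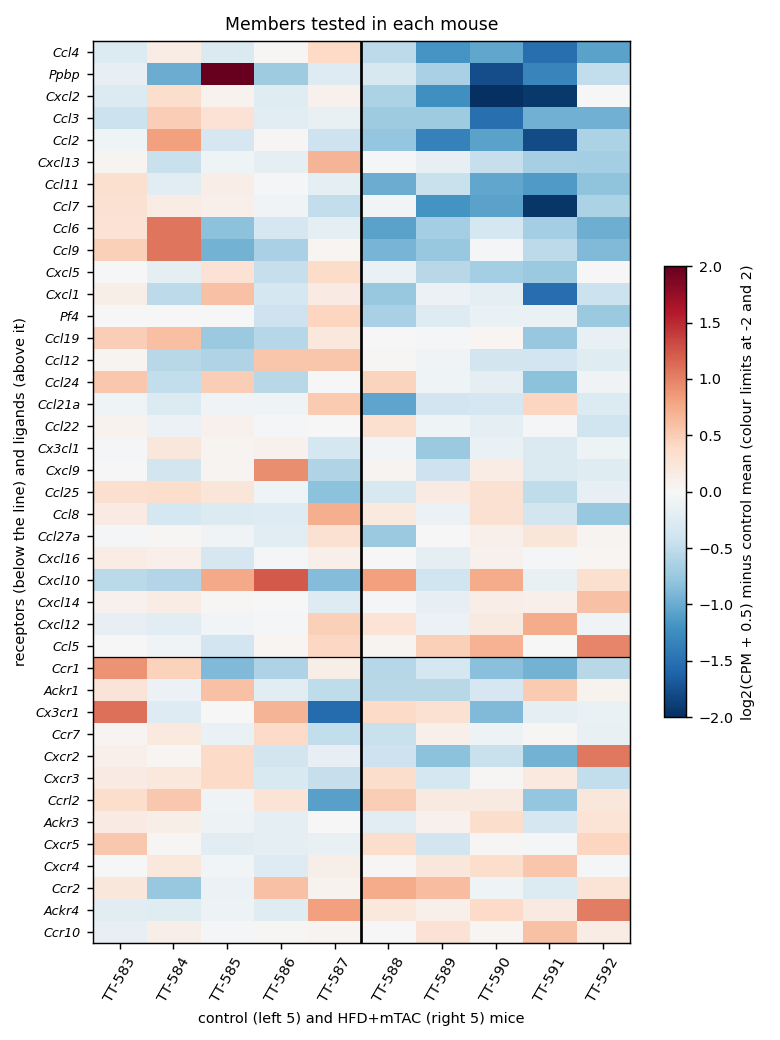
Each row is a member tested and each column a mouse, with 5 control mice left of the line and 5 HFD+mTAC mice right of it; the colour is log2(CPM + 0.5) minus the control mean, with ligands above the horizontal line. The rows at the top, from Ccl4 to Ccl9, are mostly blue in HFD+mTAC mice, and the darkest red cell is Ppbp in TT-585.

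Per transcript length, the tissue held far more ligand than receptor RNA. The summed TPM of the 31 ligands was 77.0 ± 15.4 in control and 53.2 ± 7.54 in HFD+mTAC mice (SD, n = 5), and that of the 17 receptors was 8.15 ± 1.80 and 8.02 ± 2.19. The ligand sum was highest in TT-583 (85.9 TPM) and TT-584 (99.6 TPM), against 64.1 to 70.5 TPM in the other controls. With 64.6 TPM in TT-592 the groups overlapped. TT-583 and TT-584 also had the lowest mitochondrial shares of counts (43.8% and 44.0%), and the part of this in their TPM was not tested. Pooled over all 10 mice, the order of mean levels began with Cxcl12 (12.6 ± 2.76 TPM, SD, n = 10), Ccl21a (9.89 ± 2.28 TPM), Pf4 (7.09 ± 1.90 TPM), Ackr3 (6.78 ± 1.71 TPM), Ccl2 (6.41 ± 4.44 TPM) and Cxcl1 (4.47 ± 1.74 TPM). Neighbours in that order differed by less than the larger SD of the pair, except Ccl21a and Pf4. The place of Ccl2 depended on the group, since its mean was above those of Pf4 and Ackr3 in control (9.09 against 8.45 and 6.88 TPM) and below both in HFD+mTAC mice (3.73 against 5.74 and 6.67 TPM). In all, 14 members had a mean over 1 TPM in the 10 mice, 13 of them ligands, and 21 had a mean under 0.1 TPM. Ackr3 was the only receptor over 1 TPM, and Cxcr4 came next among receptors at 0.579 ± 0.305 TPM.

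**Figure D3:**
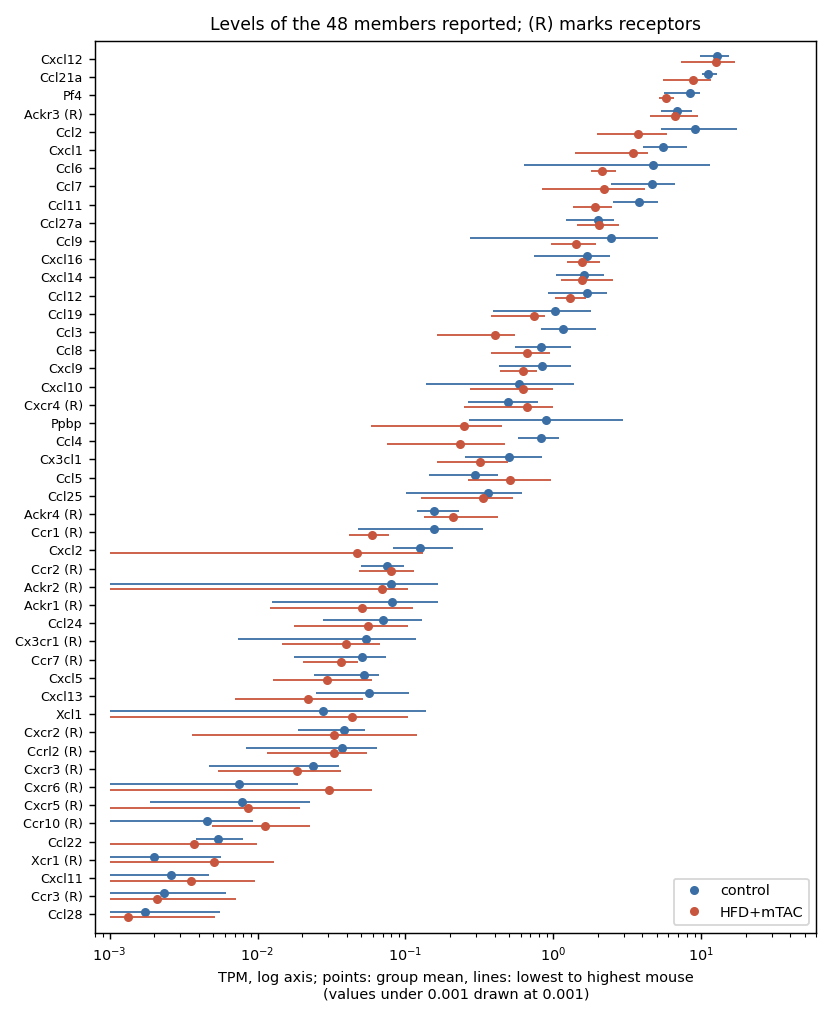
Level in TPM (log axis) of the 48 members, highest at the top; points are group means and lines reach from the lowest to the highest of 5 mice, control in blue and HFD+mTAC in red, with (R) for receptors. The blue point is over 1 TPM for 16 members and the red one for 14, and the red points of Ccl2, Ccl3, Ccl4, Ccl7 and Ccl11 lie left of the blue ones.

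Values for single members are given below in CPM, estimated counts over the library size of the tested genes as scaled by TMM, in the order TT-583 to TT-587 for control mice and TT-588 to TT-592 for HFD+mTAC mice. Fold changes are from edgeR on the log2 scale, HFD+mTAC minus control, with the SE and an adjusted p over all 13296 genes.

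The ligands grouped here under Ccr2, the receptor that brings Ccr2+ monocytes out of marrow and blood, were all 4 below 0 (median log2 fold change -0.62). Ccl2 (chromosome 11, 82035571 to 82037453, + strand, GRCm38), the main monocyte chemoattractant, read 12.9, 24.8, 10.8, 14.0 and 10.1 CPM in control mice and 7.88, 5.08, 6.31, 3.62 and 8.72 CPM in HFD+mTAC mice. Every HFD+mTAC mouse lay under every control mouse. The means were 14.5 ± 5.95 and 6.32 ± 2.06 CPM (SD, n = 5), a 2.30-fold lower level in HFD+mTAC mice (log2 fold change -1.20, SE 0.28, edgeR adjusted p = 0.243). TT-584 stood above the other control mice, and without it the log2 fold change was -0.92 (edgeR adjusted p = 0.397). Ccl7, a second Ccr2 ligand beside Ccl2 on the chromosome, read 14.6, 13.0, 12.6, 11.1 and 8.18 CPM in control and 11.3, 4.84, 5.31, 2.66 and 7.37 CPM in HFD+mTAC mice. Only TT-588 among the latter reached into the control range (log2 fold change -0.92, SE 0.31, edgeR adjusted p = 0.413). The other 2 ligands of the group, Ccl12 and Ccl8, had log2 fold changes of -0.32 and -0.21 with edgeR adjusted p-values of 0.849 and 0.928.

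The ligands of Ccr1 and its relatives, made by activated macrophages and lymphocytes, included 2 of the 4 members without overlap. Ccl3 (chromosome 11, 83647844 to 83649355, - strand), macrophage inflammatory protein 1-alpha, read 1.20, 2.73, 2.30, 1.48 and 1.57 CPM in control and 0.897, 0.907, 0.308, 0.683 and 0.675 CPM in HFD+mTAC mice. Ccl4 (chromosome 11, 83662584 to 83664683, + strand), its close relative and neighbour, read 1.01, 1.52, 0.980, 1.34 and 1.89 CPM in control and 0.769, 0.302, 0.384, 0.137 and 0.368 CPM in HFD+mTAC mice. Both were lower in every HFD+mTAC mouse than in any control mouse. Ccl3 was 2.65-fold lower (log2 fold change -1.40, SE 0.34, edgeR adjusted p = 0.256) and Ccl4 3.35-fold lower (-1.74, SE 0.41, adjusted p = 0.233). Both rest on few reads, 4 to 52 counts per mouse for Ccl3 and 2 to 29 for Ccl4.

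Ccl6 and Ccl9, rodent ligands of Ccr1 that myeloid cells release, had the same 2 mice at the top. Ccl6 read 25.2, 43.8, 11.4, 16.1 and 17.9 CPM in control and 9.54, 12.6, 16.1, 12.7 and 10.2 CPM in HFD+mTAC mice. Ccl9, described in full after its values were seen, read 23.7, 35.7, 8.52, 10.6 and 17.3 CPM in control and 8.58, 9.74, 16.6, 11.5 and 8.90 CPM in HFD+mTAC mice. TT-583 and TT-584 were the highest for both genes, and the groups overlapped. The log2 fold change was -0.91 (SE 0.31, edgeR adjusted p = 0.418) for Ccl6 and -0.80 (SE 0.35, adjusted p = 0.567) for Ccl9. For Ccl6 it was -0.53 without TT-584 and -0.31 without TT-583 and TT-584, and for Ccl9 -0.44 and -0.13. The effective length assigned to Ccl6 was 2660 bases in TT-585 and 665 to 973 bases in the other mice, and that of Ccl9 was 4579 bases in TT-585 and 712 to 1591 bases in the others, so the TPM of both in TT-585 (0.631 and 0.274) is low for its counts. The value of Ccl9 was -0.18 with limma on log2(TPM + 1) and -0.50 with transcript lengths as an offset. Ccl5, made by T cells and platelets, was the exception in the group, with 0.480, 0.420, 0.245, 0.493 and 0.786 CPM in control and 0.512, 0.847, 1.08, 0.478 and 1.41 CPM in HFD+mTAC mice (log2 fold change 0.86, SE 0.42, edgeR adjusted p = 0.626, 5 to 23 counts per mouse). Its groups overlapped.

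Ccl11, or eotaxin, a ligand of Ccr3 that draws eosinophils and is made by fibroblasts among other cells, had the smallest p of all members. The gene (chromosome 11, 82057823 to 82062955, + strand) read 12.9, 8.72, 11.3, 9.94 and 8.81 CPM in control and 4.87, 7.38, 4.69, 4.37 and 5.65 CPM in HFD+mTAC mice. The highest HFD+mTAC mouse lay under the lowest control mouse, and the 61 to 268 counts per mouse make it one of the better measured of these ligands. It was 1.91-fold lower, with a log2 fold change of -0.94 (SE 0.18, unadjusted p = 0.000188, edgeR adjusted p = 0.139). With any 1 mouse left out the log2 fold change was between -1.08 and -0.84. The edgeR adjusted p then ran from 0.0611 (without TT-589) to 0.347 (without TT-583). It was 0.525 in edgeR with transcript lengths as an offset. Ccl24, the second eotaxin, differed less, at -0.27 (SE 0.46, edgeR adjusted p = 0.926). Ccr3, their receptor, had 0 to 4 counts per mouse and could not be tested.

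**Figure D4:**
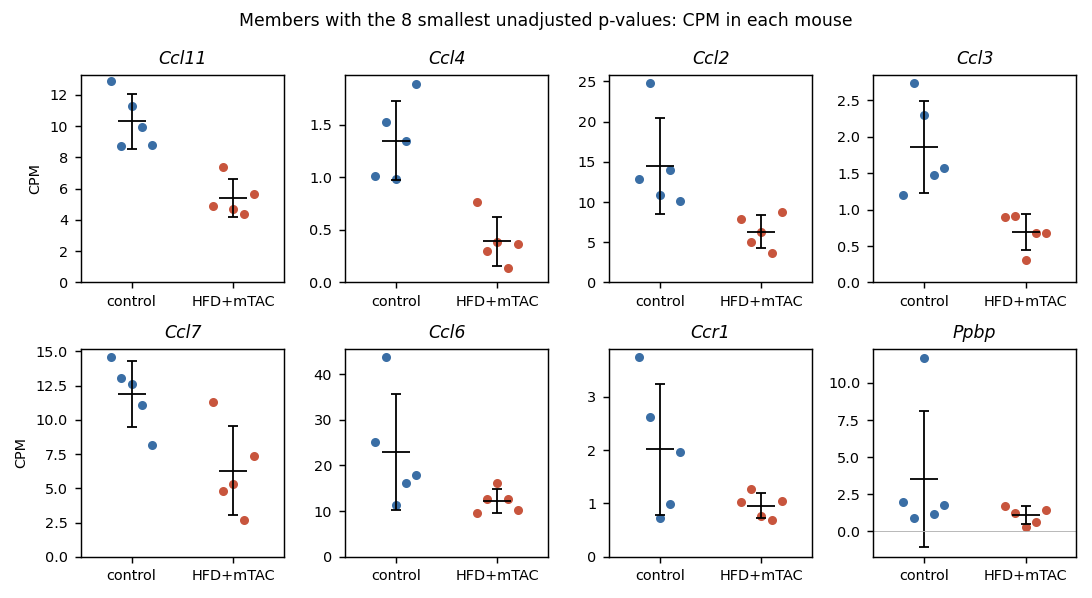
CPM (y axis, own scale per panel) in each mouse for the 8 members with the smallest unadjusted p; points are mice, bars are the mean and SD of 5 mice, blue for control and red for HFD+mTAC. The groups are apart for Ccl11, Ccl4, Ccl2 and Ccl3, overlap for Ccl7, Ccl6, Ccr1 and Ppbp, and 1 control mouse sets the mean of Ppbp.

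The ligands at neutrophil receptors (Cxcl1, Cxcl2, Cxcl5 and Ppbp, which act on Cxcr2 and pull neutrophils into tissue) were all 4 below 0, with a median log2 fold change of -1.11. Cxcl1, the most abundant of them, read 20.5, 12.9, 28.7, 14.7 and 21.3 CPM in control and 10.95, 17.4, 16.6, 6.21 and 13.9 CPM in HFD+mTAC mice. Its groups overlapped (log2 fold change -0.59, SE 0.27, edgeR adjusted p = 0.600). Cxcl2, which is described in full after its values were seen, read 1.30, 2.26, 1.76, 1.34 and 1.81 CPM in control and 0.897, 0.423, 0, 0.0683 and 1.66 CPM in HFD+mTAC mice. The 0 of TT-590 allows up to 0.231 CPM, the level of 3 counts in that library, which covers counting error only. TT-592 lay inside the control range and the other 4 HFD+mTAC mice lay under it (log2 fold change -1.43, SE 0.65, edgeR adjusted p = 0.599, and -2.22 without TT-592, adjusted p = 0.401).

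Promoter windows of Cxcl1, Cxcl2 and Ccl9 are shown because they are the members of the 12 above that hold the NF-kappaB consensus in the window from 250 bases before to 50 after the annotated start (RefSeq, GRCm38.p6), and that of Ccl3 because its groups did not overlap. Capitals mark the consensus on either strand, with overlapping matches joined, and TATAAA on the gene's strand. All are written 5′ to 3′ on the strand of the gene.
Cxcl1, chr5:90890995-90891294, + strand: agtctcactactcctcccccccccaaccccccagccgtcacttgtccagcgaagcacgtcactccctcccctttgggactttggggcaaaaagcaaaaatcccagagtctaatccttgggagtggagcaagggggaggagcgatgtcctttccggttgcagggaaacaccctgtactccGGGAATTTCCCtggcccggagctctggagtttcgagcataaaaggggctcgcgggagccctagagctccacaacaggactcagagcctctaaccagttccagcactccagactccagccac
Cxcl2, chr5:90903649-90903948, + strand: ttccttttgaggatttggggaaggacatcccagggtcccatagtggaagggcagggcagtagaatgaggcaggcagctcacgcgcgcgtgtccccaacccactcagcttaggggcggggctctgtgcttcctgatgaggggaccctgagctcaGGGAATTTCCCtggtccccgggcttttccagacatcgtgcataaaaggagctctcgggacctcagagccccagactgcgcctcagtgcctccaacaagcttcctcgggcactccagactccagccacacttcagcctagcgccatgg
Ccl9, chr11:83578587-83578886, - strand: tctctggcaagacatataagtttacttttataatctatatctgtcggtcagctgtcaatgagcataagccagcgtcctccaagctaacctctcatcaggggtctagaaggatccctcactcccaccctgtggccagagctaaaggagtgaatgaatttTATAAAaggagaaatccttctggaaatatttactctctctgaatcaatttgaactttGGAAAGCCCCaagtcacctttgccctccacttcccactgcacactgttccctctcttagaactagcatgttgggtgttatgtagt
Ccl3, chr11:83649329-83649628, - strand: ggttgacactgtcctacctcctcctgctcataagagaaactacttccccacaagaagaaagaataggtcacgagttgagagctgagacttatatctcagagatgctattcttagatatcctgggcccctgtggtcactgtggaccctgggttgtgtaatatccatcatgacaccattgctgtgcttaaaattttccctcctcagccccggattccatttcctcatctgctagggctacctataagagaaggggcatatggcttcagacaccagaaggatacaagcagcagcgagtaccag

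The capitals of Cxcl1 and Cxcl2 are the same 11 letters, GGGAATTTCCC, at 71 to 61 and 97 to 87 bases before the start. Promoter entries were given for 36 of the 48 members, and the consensus stood in 8 of them (22.2%), Ackr2, Ccl27a, Ccl9, Ccr3, Ccrl2, Cxcl1, Cxcl10 and Cxcl2, against 6.44% of the 10059 tested genes with an entry. The 36 include members that could not be tested, Ackr2 and Ccr3 among them, so the 2 shares are not over like sets. TATAAA on the gene's strand stood in 11 of 36 (30.6%), against 5.45%. Of the 12 members lower at an unadjusted p under 0.05, the table has no entry for Ccl11, Ccl4, Ccl2 and Ccl7. A match is a description of letters in a window, and the window of Ccl3 holds neither motif.

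The 3′ UTRs of Cxcl1 and Cxcl2 also carry the same repeated letters. The sequence TATTTAT, an AU-rich element of the kind known to shorten the life of cytokine mRNAs, occurred 6 times in the 3′ UTR of Cxcl1 and 7 times in that of Cxcl2, in the coding transcript with the longest coding part (GENCODE vM21). Matches that overlap were each counted, so 1 unbroken run can hold more than 1. Counted in this way, only 32 of 13255 tested genes (0.241%) held 6 or more. Ccl3 and Ccl4 held 1 each, and Ccl2, Ccl7 and Ccl11 held 0. Of the 31 ligands, 10 held at least 1 (32.3%), against 27.5% of genes tested and 17.1% of those with a 3′ UTR of like length (269 to 1183.5 bases, the middle range of the ligands). The 32.3% is over all ligands reported, with 3′ UTRs of 31 to 5188 bases, so only the 17.1% is limited by length. The sites with the most repeats are shown here with TATTTAT in capitals, to set beside the values of these 4 genes.
Cxcl1, chr5:90892603-90892631, + strand: agggtccTATTTATTTATgTATTTATtta
Cxcl2, chr5:90905332-90905360, + strand: atttatctatgTATTTATTTATTTATtaa
Ccl3, chr11:83648003-83648031, - strand: gtatttgtgacTATTTATtctgaaagact
Ccl4, chr11:83664542-83664570, + strand: attatttctatTATTTATgttttagttat

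Among the platelet chemokines, Ppbp showed 1 mouse far from the rest and Pf4 did not. Ppbp, stored in platelet granules and processed to a neutrophil attractant, read 1.97, 0.893, 11.7, 1.20 and 1.81 CPM in control and 1.73, 1.27, 0.308, 0.614 and 1.47 CPM in HFD+mTAC mice. TT-585 alone was high, and without it the log2 fold change went from -1.69 (SE 0.71, edgeR adjusted p = 0.541) to -0.42 (edgeR adjusted p = 0.842). Pf4, platelet factor 4, which cardiac macrophages also express, read 13.5, 13.4, 13.5, 9.94 and 18.2 CPM in control and 8.45, 11.2, 12.2, 12.3 and 7.86 CPM in HFD+mTAC mice. Its groups overlapped (log2 fold change -0.40, SE 0.18, edgeR adjusted p = 0.597), and TT-585 was not raised.

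Platelet and neutrophil markers moved with these ligands in part. The summed level of 6 platelet markers was 0.109 to 3.59 TPM in control and 0.0964 to 0.514 TPM in HFD+mTAC mice (two-sided exact permutation test, p = 0.0476, and 0.584 adjusted over 17 marker lists), with 3.59 TPM in TT-583 and 1.10 TPM in TT-585. In CPM, the scale given for Ppbp, TT-585 was the highest of all 10 mice for 4 of the 6, Itga2b (8.03 CPM against 0.775 to 2.78 CPM in the others), Gp9 (1.08 CPM), Gp1ba (1.13 CPM) and Treml1 (0.539 CPM, 0 in the others). Gp6 and Treml1 of that list were at 0 in 5 mice or more. The summed level of 8 neutrophil markers was 3.60 to 7.88 TPM in control and 0.480 to 6.89 TPM in HFD+mTAC mice, with TT-592 the highest of the latter (p = 0.0952 in the exact permutation test). All 3 neutrophil markers tested were below 0, S100a9 with a log2 fold change of -1.10 (edgeR adjusted p = 0.519), and Ly6g and Camp were at 0 in 5 mice or more. The part of these cells in the values of Ppbp, Cxcl2 or Cxcr2 was not tested.

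The constitutive ligands, led by Cxcl12, had log2 fold changes of -0.35 to 0.21, and the groups overlapped for each. Cxcl12, the ligand of Cxcr4 and Ackr3 and the most abundant member, read 414, 399, 450, 453 and 647 CPM in control and 561, 430, 528, 776 and 444 CPM in HFD+mTAC mice. TT-587 and TT-591 stood above the rest of their groups (log2 fold change 0.21, SE 0.17, edgeR adjusted p = 0.803). Ccl21a, which lymphatic endothelium makes for cells bearing Ccr7, read 35.9, 31.5, 36.1, 35.8 and 54.9 CPM in control and 18.1, 29.1, 30.1, 51.6 and 31.6 CPM in HFD+mTAC mice. The same 2 mice were the highest of their groups (log2 fold change -0.27, SE 0.23, edgeR adjusted p = 0.821). Its near-identical copies Ccl21b and Ccl21c were listed at 0 in every mouse, so the reads were assigned to Ccl21a alone and its level is uncertain to that extent. Ccl19, the other Ccr7 ligand, stood at -0.35 (adjusted p = 0.885 in edgeR). Its log2 fold change turned to 0.24 without TT-583 and TT-584. Cxcl14 and Ccl27a, epithelial and stromal ligands, had log2 fold changes of 0.14 and -0.05.

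Interferon-inducible ligands of Cxcr3, which recruit activated T and NK cells, pointed no one way. Cxcl9 read 16.6, 12.8, 17.3, 32.1 and 10.9 CPM in control and 17.3, 12.4, 18.5, 13.6 and 14.1 CPM in HFD+mTAC mice. TT-586 was high among controls, and without it the log2 fold change of -0.24 (SE 0.25, edgeR adjusted p = 0.868) turned to 0.0706. Cxcl10 read 0.720, 0.683, 2.50, 3.66 and 0.472 CPM in control and 2.63, 0.847, 2.46, 1.09 and 1.72 CPM in HFD+mTAC mice. Its controls spread more than the groups differed (log2 fold change 0.12, SE 0.55, edgeR adjusted p = 0.976, and -0.10 to 0.64 with 1 mouse left out). Cxcl11 had 0 to 2 counts per mouse and is annotated as a polymorphic pseudogene in the reference. Their receptor Cxcr3 had 1 to 11 counts per mouse and stood at -0.23 (SE 0.60, edgeR adjusted p = 0.952), a direction that turned when TT-585 or TT-592 was left out.

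The groups overlapped for the 2 membrane-bound ligands. Cx3cl1, or fractalkine, which endothelium displays, read 25.2, 30.1, 26.8, 27.4 and 20.1 CPM in control and 24.7, 15.2, 23.5, 21.0 and 23.8 CPM in HFD+mTAC mice (log2 fold change -0.26, SE 0.15, edgeR adjusted p = 0.689). Cxcl16, also a scavenger receptor, read 26.6, 25.8, 18.9, 23.5 and 25.7 CPM in control and 23.8, 21.0, 25.4, 23.4 and 24.6 CPM in HFD+mTAC mice. Its mean was 24.1 ± 3.16 and 23.6 ± 1.63 CPM (log2 fold change -0.03, SE 0.11, edgeR adjusted p = 0.970), and the sign turned to 0.10 with limma on log2(TPM + 1). Among the other ligands tested, Cxcl13, Cxcl5, Ccl24, Ccl22 and Ccl25 had 0 to 31 counts per mouse and log2 fold changes of -1.06 to -0.22.

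Receptors of CC ligands were scarce, and those that bind the ligands above did not all go with them. Ccr1, on myeloid cells, read 3.74, 2.63, 0.735, 0.987 and 1.97 CPM in control and 1.02, 1.27, 0.769, 0.683 and 1.04 CPM in HFD+mTAC mice. TT-583 and TT-584 were the highest, as for its ligands Ccl6 and Ccl9 (log2 fold change -1.07, SE 0.43, edgeR adjusted p = 0.514, and -0.32 without these 2 mice). Ccr2, the receptor of Ccl2 and Ccl7, read 4.95, 2.26, 3.82, 6.48 and 4.40 CPM in control and 7.30, 6.65, 3.92, 3.35 and 5.16 CPM in HFD+mTAC mice. Its value was on the other side of 0 from the 4 ligands grouped under it (log2 fold change 0.28, SE 0.29, edgeR adjusted p = 0.868), and its groups overlapped. Ccr7 stood at -0.28 (adjusted p = 0.915 in edgeR), and Ccr10, with 0 to 5 counts per mouse, at 1.33 (SE 0.74, adjusted p = 0.693 in edgeR).

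Macrophage and monocyte markers were mixed in direction. Of 12 macrophage markers tested, 7 were above and 5 below 0, with a median log2 fold change of 0.02 and 0 called by edgeR. Their summed level was 24.9 to 50.3 TPM in control and 29.8 to 38.1 TPM in HFD+mTAC mice (two-sided exact permutation test, p = 0.698). TT-583 (45.6 TPM) and TT-584 (50.3 TPM), the highest for Ccl6, Ccl9 and Ccr1, were also the highest for this sum. In TPM they were likewise the highest for the cardiomyocyte, fibroblast, endothelial and mural lists. Mitochondrial counts made up 43.8% and 44.0% of these libraries, the lowest shares of all mice. In CPM, the scale given for the ligands, TT-583 or TT-584 was the highest for Emr1, Fcgr1, C1qa, C1qb and C1qc. Other mice were the highest for Cd68, Csf1r, Mrc1, Cd163, Folr2, Timd4 and Mertk. The 6 monocyte markers summed to 0.151 to 0.938 TPM in control and 0.256 to 0.825 TPM in HFD+mTAC mice (p = 0.960 in the exact permutation test). T cell, B cell and NK cell markers summed to at most 0.574, 1.37 and 0.256 TPM in any mouse, and 3 NK cell markers (Gzma, Prf1 and Klre1) were at 0 in 5 mice or more. Over all 17 marker lists, 0 of 76 markers tested passed an adjusted p of 0.05 and 0 lists were without overlap between the groups. The part of these cells in the ligand values was not tested.

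CXC receptors were led by Cxcr4, which holds progenitor and immune cells near Cxcl12. Cxcr4 read 8.21, 9.62, 7.98, 6.84 and 8.96 CPM in control and 8.45, 9.80, 10.7, 12.4 and 8.16 CPM in HFD+mTAC mice. Its groups overlapped, with 3 HFD+mTAC mice above all controls (log2 fold change 0.25, SE 0.15, edgeR adjusted p = 0.723). Cxcr2, the neutrophil receptor, read 0.672, 0.631, 0.931, 0.352 and 0.472 CPM in control and 0.320, 0.121, 0.308, 0.0683 and 1.78 CPM in HFD+mTAC mice. TT-592 was the highest of all 10 and the other 4 HFD+mTAC mice lay under every control, so the log2 fold change of -0.24 (SE 0.68, edgeR adjusted p = 0.959) became -1.59 without TT-592 (edgeR adjusted p = 0.457). Cxcr5, on B cells, had 0 to 9 counts per mouse (log2 fold change 0.23, SE 0.78, edgeR adjusted p = 0.966). Cxcr6, the receptor of Cxcl16, had 0 to 15 counts and read 0.0480, 0.158, 0, 0.282 and 0 CPM in control and 0, 0.484, 0.308, 1.02 and 0.552 CPM in HFD+mTAC mice. It could be fitted only with the filter of 5 mice, where its log2 fold change was 2.24 (SE 0.97, unadjusted p = 0.0395, edgeR adjusted p = 0.599). Cx3cr1, on resident macrophages and patrolling monocytes, read 6.05, 2.05, 2.55, 4.37 and 0.550 CPM in control and 3.46, 3.27, 1.15, 2.18 and 2.27 CPM in HFD+mTAC mice. The controls alone spanned the whole range (log2 fold change -0.34, SE 0.48, edgeR adjusted p = 0.913).

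Atypical receptors pointed no one way, and the groups overlapped for each. Ackr3, which takes Cxcl12 out of the extracellular space, read 184, 176, 152, 144 and 163 CPM in control and 141, 173, 209, 130 and 197 CPM in HFD+mTAC mice. With means of 164 ± 16.4 and 170 ± 34.2 CPM its groups overlapped (log2 fold change 0.05, SE 0.13, edgeR adjusted p = 0.951), and the sign turned when TT-590 or TT-592 was left out (lowest value -0.0329). Ackr4, a scavenger of Ccl19 and Ccl21, read 2.30, 2.26, 2.55, 2.26 and 5.27 CPM in control and 3.27, 3.02, 3.77, 3.21 and 6.14 CPM in HFD+mTAC mice. In each group 1 mouse stood apart, TT-587 and TT-592, and the other HFD+mTAC mice were above the other controls (log2 fold change 0.42, SE 0.30, edgeR adjusted p = 0.777). Without TT-587 the value was 0.73 (edgeR adjusted p = 0.372), and without TT-592 it was 0.19. Ackr1 stood at -0.48 (SE 0.69, and -1.16 without TT-591) and Ccrl2 at 0.01 (SE 0.37), with adjusted p-values of 0.916 and 0.998 in edgeR. Ackr2, a scavenger of inflammatory CC ligands, was listed at 0 in TT-585, TT-587 and TT-591 and at 1.66 to 3.50 CPM in the other 7 mice, in both groups.

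The 4 remaining members had few counts, at most 4 for Ccl28 and Ccr3, 6 for Xcl1 and 7 for Xcr1. The 17 genes of the rule that were not reported were detected in under 5 mice, and 9 of them were at 0 in every mouse. These 17 included Ccl17, Ccl20, Ccl26, Ccr4, Ccr6, Ccr8, Ccr9 and Cxcr1.

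Many of the ligands lie next to each other in the genome, and of all ligands tested, in rows or not, 24 of 28 were below 0. On chromosome 11, from 82035571 to 82305690 (GRCm38), the order is Ccl2, Ccl7, Ccl11, Ccl12, Ccl8 and Ccl1, and all 5 genes tested were below 0 with a median of -0.92. From 83525778 to 83664683 on the same chromosome stand Ccl5, Ccl9, Ccl6, Ccl3 and Ccl4, with 4 of 5 below 0, a median of -0.91 and Ccl5 at the other end of the row. On chromosome 5, from 90759360 to 90905938, the order is Cxcl5, Ppbp, Pf4, Cxcl3, Cxcl15, Cxcl1 and Cxcl2, and all 5 genes tested were below 0 with a median of -0.79. In the row of Cxcl9, Cxcl10 and Cxcl11, also on chromosome 5, 1 of the 2 genes tested was below 0. The rows on chromosomes 4 and 8 had 3 of 3 and 2 of 2 genes tested below 0, each with a median of -0.27. The receptor row on chromosome 9 (123678439 to 124113557), which includes Ccr1, Ccr3 and Ccr2, had 1 of 2 tested below 0.

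**Figure D5:**
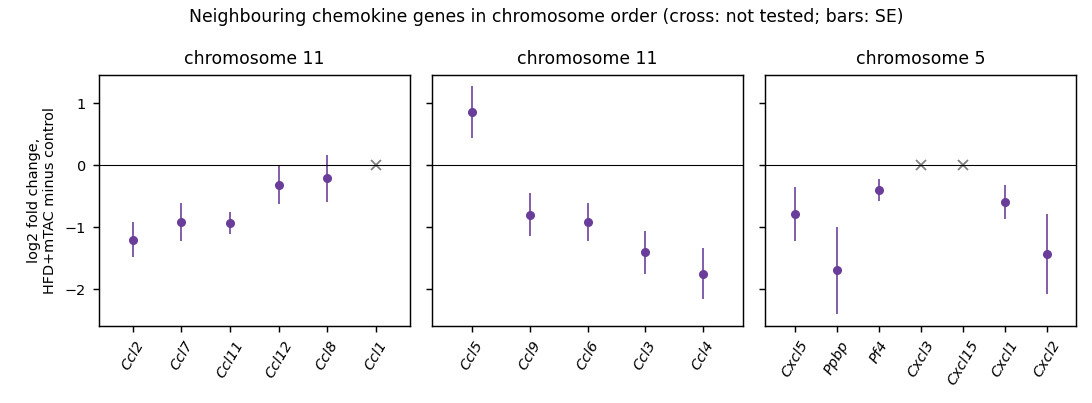
Log2 fold change (HFD+mTAC minus control, y axis) of neighbouring chemokine genes in their order along the chromosome, for the 3 rows with 5 genes tested; bars are the SE and crosses mark genes not tested. In the left and right panels all points lie under 0, and in the middle panel Ccl5 lies above 0 at 0.86 and Ccl4 lowest at -1.74.

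Genes upstream of the inducible ligands included some of the same direction. Of 28 inducing cytokines and NF-kappaB genes, 20 could be tested, 7 above and 13 below 0 (median -0.11), and 0 passed the edgeR threshold. Tnf, the cytokine that induces Ccl2 and Cxcl1 in many cells, read 3.60, 2.99, 1.18, 1.69 and 4.80 CPM in control and 0.897, 0.786, 1.08, 0.546 and 1.10 CPM in HFD+mTAC mice. The groups did not overlap (log2 fold change -1.68, SE 0.39, edgeR adjusted p = 0.224). Il1b, a second inducer, stood at -2.01 (SE 0.61, edgeR adjusted p = 0.357) with 15.6 CPM in TT-583 and 9.35 CPM in TT-584 against 1.90 to 3.13 CPM in the other controls. Tnfaip3, an NF-kappaB target that damps the pathway, stood at -0.59 (SE 0.17, edgeR adjusted p = 0.335). Nfkbia, another target, and Irf7, an interferon response factor, were at 0.42 and 0.41, above 0 (adjusted p = 0.480 and 0.416 in edgeR; both are named after their values were seen).

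Genes downstream of the receptors and of leukocyte adhesion were divided in direction. All 35 genes of receptor signal transduction were tested, 19 above and 16 below 0 (median 0.03), and 0 passed. The smallest p-values were those of Pik3cd, a leukocyte PI3-kinase (log2 fold change 0.45, SE 0.14, adjusted p = 0.375 in edgeR), Plcb3 (0.23, SE 0.09, adjusted p = 0.524) and Prex1, a Rac activator (-0.23, SE 0.12, adjusted p = 0.666). Of 19 adhesion and transmigration genes, 17 were tested, 8 above and 9 below 0 (median -0.02), and 0 passed. Icam1, the endothelial ligand of leukocyte integrins, read 35.3, 59.2, 29.5, 35.5 and 38.9 CPM in control and 24.7, 25.3, 28.5, 28.1 and 36.0 CPM in HFD+mTAC mice (log2 fold change -0.48, SE 0.17, edgeR adjusted p = 0.467). Only TT-592 reached into the control range. Itga4 and Jam3 came next, at -0.21 and 0.12 with adjusted p-values of 0.833 and 0.860 in edgeR.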

How the data were processed

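The authors sequenced polyadenylated RNA of left ventricle with a stranded kit, quantified it with Salmon 1.6.0 on mouse GENCODE transcripts (GRCm38) and summed it to genes with tximport. The labels name hg38 instead, which mouse symbols contradict, and labels and methods differ on the read layout. The authors deposited expected counts (not normalized, 20.07% not whole), TPM and effective transcript lengths in bases.

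Of 29564 symbols, 27812 matched GENCODE vM21 directly, 863 by an older symbol and 889 not at all. Counts were rounded and tested with edgeR 4.0.16 (TMM, quasi-likelihood, Benjamini-Hochberg over 13296 protein-coding, not mitochondrially encoded genes with at least 1 count in 9 of 10 mice) in R 4.3.3, with 5 mice a group and no covariate. The SE is the log2 fold change over the root of its F. Single sums were compared by exact permutation. DESeq2 1.42.0, limma 3.58.1, other normalizations, filters, lengths as an offset and the omission of each mouse were alternatives. Scripts were tested on simulated counts.

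Depth was 34.2 to 53.7 M counts, and 3 counts equal 0.144 to 0.236 CPM. Members, role groups, 17 marker lists and 3 pathway lists were chosen with earlier results of these data known. A gene that the symbol rule also finds is not reported here. Members were named if they had an adjusted p under 0.05, 1 of the 8 smallest p, no overlap, 1 of the 5 highest mean TPM of ligands or receptors, a place in a listed ligand and receptor pair, or 1 mouse far from its group, and of each pathway list the 3 smallest p.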

Additional observations from a re-analysis of the deposited data

Results flagged for a closer look

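Among 82 groups of 5 mice (41 members in 2 groups), 8 had 1 mouse whose gap to its nearest neighbour exceeded 0.71 of the group's range (Dixon's criterion for 5 values, which chance passes in about 1 of 20 groups). For Ackr4 the gap was 0.903 of the range in control (TT-587, 5.27 CPM against 2.26 to 2.55) and 0.761 in HFD+mTAC mice (TT-592, 6.14 CPM against 3.02 to 3.77). TT-587 was also apart for Ccl21a (0.804, 54.9 CPM against 31.5 to 36.1) and Cxcl12 (0.782, 647 CPM against 399 to 453). For Ccl2 in control it was TT-584 (0.740, 24.8 CPM against 10.1 to 14.0). For Ppbp in control it was TT-585 (0.900, 11.7 CPM against 0.893 to 1.97), and for Cxcr5 TT-583 (0.716, 0.432 CPM against 0.0490 to 0.158). For Cxcr2 in HFD+mTAC mice it was TT-592 (0.853, 1.78 CPM against 0.0683 to 0.320). All 8 were high values, 6 of them in control mice.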

How the results depend on the processing

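The count of genes past the threshold, 8 in edgeR, was 118 with DESeq2 (61 higher), 1 with limma on log2(TPM + 1), 1 on log2(TPM + 0.1), 1 with transcript lengths as an offset, 4 without TT-583 and TT-584 (added after seeing the data), and 1 to 9 when single mice were left out, with 1 without TT-584, TT-586, TT-587, TT-588, TT-590 or TT-592, 2 without TT-585 and 3 without TT-589. Members past the threshold were 0 in every setting but DESeq2, with 4. The median over the members, -0.27, was -0.11 and -0.15 with limma at pseudocounts of 1 and 0.1, and members below 0 numbered 26 (of 35 tested, mean of at least 0.5 CPM) to 33. With the filter of 5 mice they numbered 30 of 47. Of the 25 named members that could be tested, 17 kept their direction in all 22 alternatives run. Cxcl16 turned to 0.10, 0.12 and 0.0196 with the limma fits and the length offset and to 0.0591 without TT-583 and TT-584. Without the latter 2 mice Cxcl10 turned to -0.36 and Cxcr3 to 0.00649. With 1 mouse left out the log2 fold change ran from -0.0329 to 0.13 for Ackr3, -0.60 to 0.0535 for Cx3cr1, -0.11 to 0.0114 for Cxcl16, -0.37 to 0.0706 for Cxcl9, -0.10 to 0.64 for Cxcl10, -0.57 to 0.0353 for Cxcr3, -1.59 to 0.0355 for Cxcr2 and -0.14 to 1.06 for Cxcr5. The causes were not tested. No paired analysis was possible because the mouse numbers are not shared between the groups. Depth limits the members with under 30 counts per mouse, among them Ccl4, Cxcr2, Cxcr3 and Ccr10, whose values move with a few reads.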
